A study of Mus musculus with 6 samples.

Results

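The genes described here are 31 genes of fatty acid oxidation and of the peroxisome proliferator-activated receptors (PPARs), taken by gene symbol from 55335 gene identifiers measured by RNA sequencing. They comprise 19 enzymes or subunits of mitochondrial oxidation, 9 other PPAR targets and the 3 PPAR receptors, and each of the 31 matched 1 identifier in the GENCODE M21 annotation of the mouse build GRCm38. The samples were 6 libraries of bEnd.3, an immortalised mouse brain endothelial line labelled wild type and grown in high-glucose medium with serum. In 3 libraries the cells had been incubated for 24 h with mitochondria isolated from primary mouse astrocytes (mitochondria cells), and in the other 3 they had been given the same volume of medium alone (control cells). The series is about mitochondria passed by astrocytes to cells of the blood-brain barrier, and its single comparison is mitochondria cells against control cells. Separate cultures are not stated for libraries of the same group. The p-values therefore measure spread between libraries that may be technical.

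Long-chain fatty acids enter the mitochondrion as carnitine esters, made by CPT1 on the outer membrane and turned back into acyl-CoA by CPT2. Each round of beta-oxidation then takes an oxidation, a hydration, a second oxidation and a thiolytic cut, and the electrons of the first step pass through the electron transfer flavoprotein (ETF). PPARs are fatty acid sensing nuclear receptors that bind DNA with a retinoid X receptor at a direct repeat of the hexamer AGGTCA and switch on genes of fatty acid uptake, storage and oxidation. In endothelial cells fatty acid oxidation is known mainly as a source of carbon for nucleotide synthesis and of redox balance, rather than as the main source of ATP.

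Levels are FPKM, fragments scaled by transcript length and library depth, so levels of different genes can be set side by side per length. The depths implied by the FPKM were 22200000 to 27600000 fragments in mitochondria libraries and 17300000 to 21400000 in control libraries, with every mitochondria library deeper than every control library, and the part of depth in any result was not tested. Of 15 endothelial markers 6 were at 1 FPKM or more in every library, with a summed level of 163 to 176 FPKM in mitochondria cells and 141 to 149 FPKM in control cells. Cd34 carried that gap, at 80.1 ± 1.84 FPKM in mitochondria cells and 60.3 ± 2.495 FPKM in control cells (SD, n = 3 each), and without it the sums overlapped, at 83.9 to 93.3 FPKM in mitochondria cells and 81.1 to 90.9 FPKM in control cells. Flt1 and Kdr had every mitochondria library below every control library, as did 11.4% of all genes tested. Among these markers Eng and Cd34 were high, whereas Cdh5, which encodes VE-cadherin, Pecam1 and Cldn5 stayed at or under 0.269 FPKM in all 6 libraries, so these defining markers of the labelled cell type were near 0. In such bulk libraries fewer cells of a type and less RNA per cell cannot be told apart. Adipocyte markers, which share Fabp4 and Pparg with the members, included Lep at 0 in every library and Adipoq at no more than 0.107 FPKM. Without those 2 members, 1 of the other 8 adipocyte markers (Lipe) was at 1 FPKM or more in every library, and their sum was 4.93 to 6.38 FPKM in mitochondria cells and 6.08 to 6.91 FPKM in control cells.

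Differences were tested with limma on log2(FPKM + 1) over the 12639 genes that reached 1 FPKM in 3 or more libraries, and a gene was called at a Benjamini-Hochberg adjusted p under 0.05. This scale understates the change of low genes. The call was made for 141 genes or 1.12% of those tested, 59 higher (0.467%) and 82 lower (0.649%) in mitochondria cells. Among the 59 was the endothelial marker Cd34 (limma adjusted p = 0.0265). Of the members 29 were tested, 1 was called, and Cpt1c and Pdk4 were too low to be tested. The groups did not overlap in 8 of the 29, of which 2 were higher and 6 lower in mitochondria cells, against 21.0% of all genes tested.

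The 18 tested oxidation enzymes held close to the same level in both groups, Cpt1b least so. None was called by limma, and none had an unadjusted p under 0.05, against 13.9% of all genes tested. Without control replicate 3, however, 3 of the 18 were lower at that level (16.7%, against 8.84% of all genes in that fit). Without control replicate 1, 1 was higher, and with quantile normalization and the replicate block 1 of 18 was lower, as was 1 of 19 with TPM. The change was below 0 in 9 of the 18, against 52.0% of all genes tested. Their log2 changes had a median of 0.00 and a median absolute size of 0.056, beside a median of −0.01 and a median absolute size of 0.085 over all genes tested. For 18 of the 18 the 95% interval of the change lay within 1.5-fold either way on the FPKM + 1 scale, and for 14 it lay within 1.25-fold. The lowest bound, 0.716-fold, was that of Cpt1b, whose level was so low that adding 1 shrank the change. Its change of means was −23.9%. With 0.01 added in place of 1, its log2 change was −0.359 with an SE of 0.221. The summed FPKM of the 19 enzymes was 451, 451 and 438 in the mitochondria libraries and 488, 459 and 430 in the control libraries. The control sums bracketed the mitochondria sums.

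**Figure D1:**
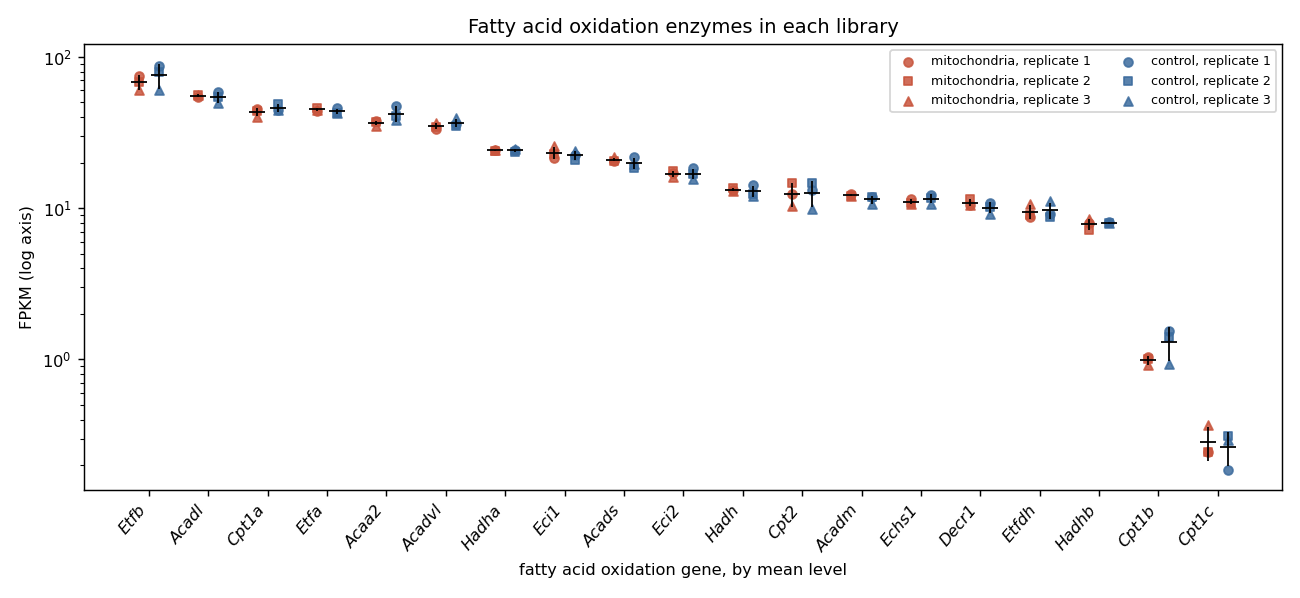
FPKM (log axis) of the 19 oxidation enzymes in each library, ordered by mean level, with mitochondria libraries left and control libraries right for each gene; bars are the mean and SD of 3 libraries. The 2 groups lie on each other for nearly every gene, and the levels run from about 71.8 FPKM for Etfb to 0.274 FPKM for Cpt1c.

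The enzymes spanned a wide range of levels that did not follow the order of the steps. Etfb, the beta subunit of ETF, averaged 71.8 FPKM over the 6 libraries, Acadl, the long-chain acyl-CoA dehydrogenase, 54.6 FPKM, and each stood clear of the next gene in every library. Cpt1a, Etfa, Acaa2 and Acadvl followed at 44.6 to 35.8 FPKM, and neighbours in that run overlapped. Hadha, Eci1 and Acads formed another overlapping run at 24.1 to 20.4 FPKM, and Eci2 stood alone at 16.9 FPKM. Hadh, Cpt2, Acadm, Echs1, Decr1 and Etfdh overlapped their neighbours between 13.1 and 9.58 FPKM. Hadhb was lower at 7.94 FPKM, and Cpt1b and Cpt1c were far below the rest.

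Cpt1 transcript came almost wholly from 1 isoform, and protein and activity were not measured. Cpt1a, the liver-type enzyme found in most tissues, had 45.1, 44.1 and 40.2 FPKM in mitochondria cells, against 44.8, 48.9 and 44.4 FPKM in control cells. It made up 97.1% ± 0.189 of the summed FPKM of the 3 Cpt1 genes in mitochondria cells and 96.7% ± 0.540 in control cells (SD, n = 3 each). Cpt1b, the muscle isoform, had 1.04, 1.01 and 0.917 FPKM in mitochondria cells, against 1.55, 1.41 and 0.927 FPKM in control cells. The groups overlapped for both genes. Cpt1b lies on chromosome 15 from 89416405 to 89425863, and 93.0% of the 50-base words of its longest coding transcript also occur in Gm44502, an annotated gene that spans it and its neighbour Chkb, so its small values are uncertain. Cpt1c, the brain isoform, was listed at 0.187 to 0.366 FPKM. Cpt2, on the inner membrane, had 12.3, 14.7 and 10.3 FPKM in mitochondria cells and 13.3, 14.6 and 9.84 FPKM in control cells. Within each group its replicate 3 was lowest. The interval of Cpt2 was the widest among the 18 tested enzymes, from −0.41 to 0.39 on the log2 scale. Its SE was 0.167, and 0.057 with the replicate number added to the fit.

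The acyl-CoA dehydrogenases, which take the first oxidation and differ in the chain length they prefer, covered all lengths in both groups. Acadvl, for very long chains, averaged 34.8 ± 1.66 FPKM in mitochondria cells and 36.8 ± 2.30 FPKM in control cells (SD, n = 3 each). Acadl averaged 55.3 ± 1.14 and 54.0 ± 4.27 FPKM in mitochondria and control cells. Acadm, for medium chains, had 12.4, 12.0 and 12.1 FPKM in mitochondria cells, against 11.8, 11.8 and 10.6 FPKM in control cells. It was the 1 enzyme whose mitochondria libraries all lay above the control libraries, as did 9.62% of all genes tested, and the difference on the log2 scale was 0.09 with an SE of 0.06 (limma adjusted p = 0.589), and 0.04 without control replicate 3. Acads, for short chains, averaged 20.97 ± 0.590 FPKM in mitochondria cells and 19.9 ± 1.66 FPKM in control cells.

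The later steps on long chains belong to the trifunctional protein, whose alpha subunit HADHA holds the hydratase and dehydrogenase sites and whose beta subunit HADHB holds the thiolase. The 2 genes lie head to head on chromosome 5, Hadha on the minus strand from 30118304 to 30155162 and Hadhb on the plus strand from 30155248 to 30184593. Their promoter windows, each 250 bases before to 50 after the RefSeq start site, share 228 bases, shown because 1 stretch faces both genes of 1 enzyme. Since the annotated Hadha gene reaches to 30155162, the Hadha window is not that of its outermost start site. The shared stretch is chr5:30155003-30155230 of GRCm38.p6 on the Hadhb strand, credited to RefSeq, and lies inside the annotated Hadha gene up to 30155162. No capitals appear in it, since it holds no AGGTCA hexamer on either strand:
Hadha and Hadhb shared promoter: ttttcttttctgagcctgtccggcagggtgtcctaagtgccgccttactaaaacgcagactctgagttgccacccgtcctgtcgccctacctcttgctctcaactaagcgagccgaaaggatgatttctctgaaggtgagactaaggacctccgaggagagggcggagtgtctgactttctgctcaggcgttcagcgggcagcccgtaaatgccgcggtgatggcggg
Its GC content was 57.02%, against a median of 52.7% over all promoter windows.

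The 2 genes differed in level, by a ratio close to 3 in both groups. Hadha had 24.1, 23.7 and 24.4 FPKM in mitochondria cells, against 24.2, 23.4 and 24.6 FPKM in control cells. It was the steadiest enzyme, with a coefficient of variation of 1.90% over the 6 libraries and a log2 change of 0.00 (95% interval −0.11 to 0.11). Hadhb had 7.97, 7.15 and 8.45 FPKM in mitochondria cells, against 8.13, 7.95 and 7.97 FPKM in control cells. The ratio of Hadha to Hadhb was 3.08 ± 0.223 in mitochondria cells and 3.00 ± 0.0799 in control cells (SD, n = 3 each). However, 61.5% of the 50-base words of the Hadhb transcript also occur in the processed pseudogene Gm13910 on chromosome 2, which was listed at 6.04 to 6.56 FPKM in mitochondria cells and 5.35 to 6.45 FPKM in control cells, so how the authors' counting divided these reads bears on the ratio. Gm13910 was named for this sharing.

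The matrix enzymes for shorter chains and the helpers for unsaturated ones moved little. Echs1, the short-chain hydratase, averaged 11.0 ± 0.442 FPKM in mitochondria cells and 11.5 ± 0.789 FPKM in control cells (SD, n = 3 each). Hadh, the short-chain dehydrogenase of the third step, averaged 13.2 ± 0.255 and 12.9 ± 1.07 FPKM in mitochondria and control cells. Acaa2, the thiolase of the last step, had 37.4, 37.4 and 35.1 FPKM in mitochondria cells, against 47.7, 40.5 and 38.2 FPKM in control cells. It was the 1 enzyme with every mitochondria library below every control library, as were 11.4% of all genes tested, and its difference of −0.19 on the log2 scale had an SE of 0.09 (limma adjusted p = 0.395) and was −0.10 without control replicate 1. Eci1 and Eci2, isomerases that reposition double bonds, averaged 23.3 ± 2.25 and 16.9 ± 0.783 FPKM in mitochondria cells and 22.4 ± 1.49 and 16.9 ± 1.38 FPKM in control cells. Decr1, the reductase for conjugated double bonds, averaged 10.9 ± 0.558 FPKM in mitochondria cells and 10.1 ± 0.838 FPKM in control cells. The log2 changes of Echs1, Hadh, Eci1, Eci2 and Decr1 lay between −0.06 and 0.10, and their limma adjusted p-values between 0.616 and 0.995.

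The ETF chain, which hands electrons to ubiquinone, was uneven among its genes. Etfa, the alpha subunit, had 43.8, 46.2 and 44.9 FPKM in mitochondria cells, against 45.8, 42.8 and 42.4 FPKM in control cells. Etfb had 75.3, 68.6 and 60.5 FPKM in mitochondria cells, against 87.1, 79.2 and 60.04 FPKM in control cells. ETF holds 1 of each subunit, and the ratio of Etfa to Etfb transcripts was 0.666 ± 0.0798 in mitochondria cells and 0.590 ± 0.101 in control cells (SD, n = 3 each). Of the 50-base words of Etfb 67.3% also occur in Gm45233, an annotated protein-coding gene on the same strand that overlaps it and was listed at 2.74 to 5.16 FPKM in mitochondria cells and 2.47 to 7.78 FPKM in control cells. Etfdh, the ubiquinone oxidoreductase at the end of the chain, averaged 9.48 ± 1.07 FPKM in mitochondria cells and 9.68 ± 1.22 FPKM in control cells. None of the 3 genes separated the groups.

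Among the receptors, Pparg was the most abundant and the most variable. Pparg, known for adipocyte formation and lipid storage and also present in endothelium, had 9.37, 8.29 and 9.15 FPKM in mitochondria cells, against 17.4, 13.1 and 8.74 FPKM in control cells. Control replicate 3 lay among the mitochondria libraries, while control replicates 1 and 2 lay above them, so the groups overlapped. The log2 change was −0.46 (SE 0.21, 95% interval −0.96 to 0.05, limma adjusted p = 0.407). It was −0.24 without control replicate 1 and −0.70 without control replicate 3, neither past the threshold. Ppard, the widely expressed receptor, averaged 4.67 ± 0.232 FPKM in mitochondria cells and 4.40 ± 0.109 FPKM in control cells (SD, n = 3 each). Ppara, which governs oxidation in liver, averaged 1.23 ± 0.340 FPKM in mitochondria cells and 1.16 ± 0.188 FPKM in control cells. Pparg made up 60.2% ± 2.05 of the summed FPKM of the 3 receptors in mitochondria cells and 69.0% ± 7.14 in control cells.

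**Figure D2:**
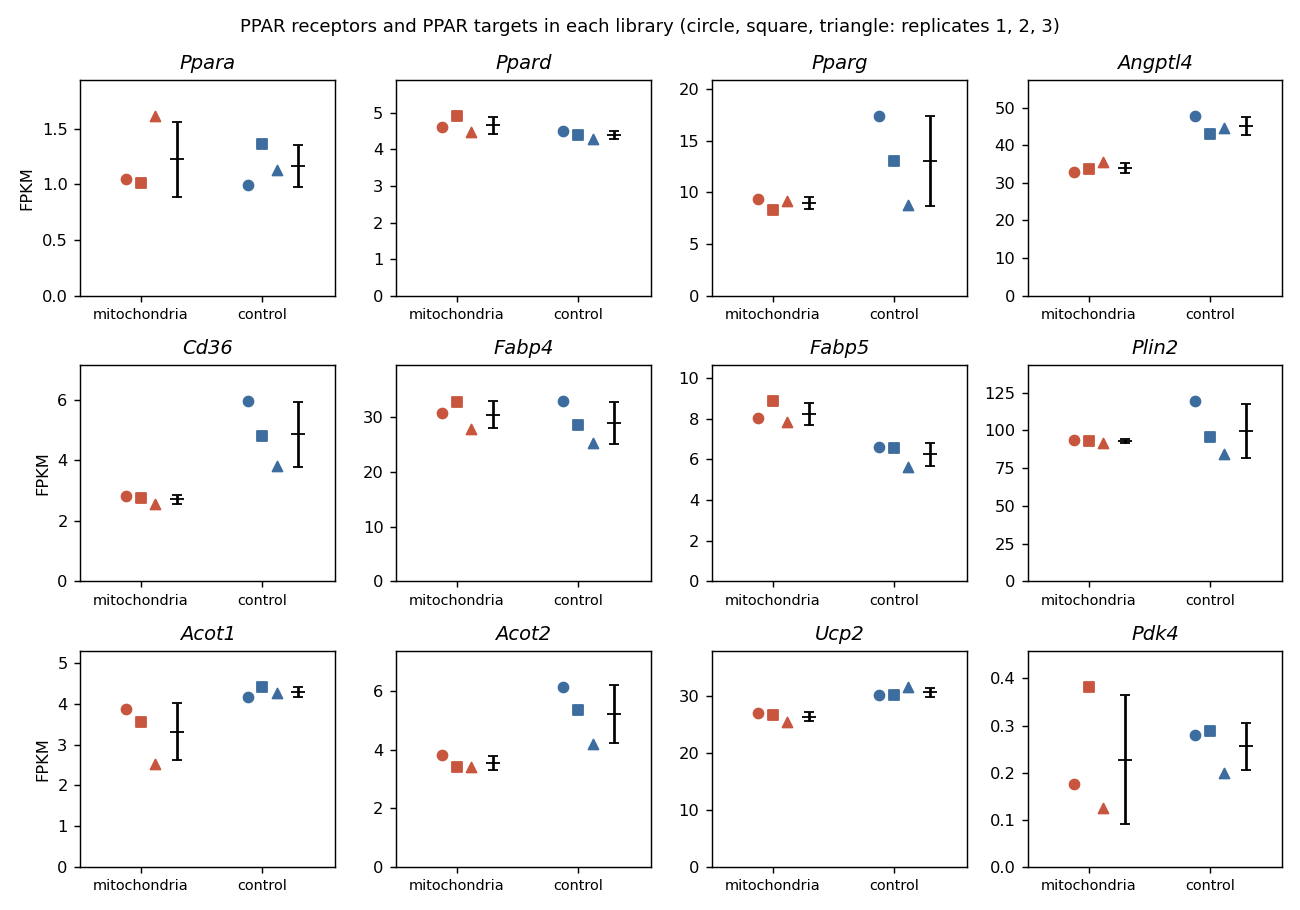
FPKM (linear axes from 0) of the 3 receptors and 9 targets, mitochondria libraries left and control libraries right, with replicates as circle, square and triangle; bars are the mean and SD of 3 libraries. Angptl4, Cd36, Acot1, Acot2 and Ucp2 have each mitochondria library below each control library, Fabp5 has the opposite, and control replicate 1 is the highest library for Pparg, Angptl4, Cd36, Plin2, Acot2 and, narrowly, Fabp4.

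The 8 tested PPAR targets outside the oxidation enzymes mostly lay lower in mitochondria cells, and 1 of them passed the threshold. PPARs also switch on oxidation genes, so these 8 do not stand for PPAR targets as a class. A list of other PPAR targets, with 17 tested, had 3 higher and 4 lower at a limma unadjusted p under 0.05. In it 7 of the 17 had no overlap between groups and were lower, against 11.4% of all genes tested. Another 2 had no overlap and were higher, against 9.62%. The median log2 change of this list was −0.09, with 11 of the 17 below 0, against 52.0% of all genes tested. Of the 8 tested targets, 5 had no overlap between groups and were lower (Angptl4, Cd36, Acot1, Acot2 and Ucp2), against 11.4% of all genes tested, and 1 had no overlap and was higher (Fabp5), against 9.62%. The same 5 and 1 had an unadjusted p under 0.05, against 7.32% of all genes for lower and 6.58% for higher. Members were chosen with earlier results of these data known, so these counts beside the shares of all genes describe and do not test. Acot1 and Acot2 may also share fragments, so they cannot be taken as independent genes among the 5. The median log2 change of the 8 was −0.26, beside −0.01 over all genes tested. With 1 library left out the median lay between −0.30 and −0.18, with 4 or 5 of the 8 lower at an unadjusted p under 0.05. With a mean of at least 5 FPKM required, 5 targets were left, their median was −0.09, and 2 of the 5 were lower at that p.

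Angptl4 was the called gene. It encodes a secreted inhibitor of lipoprotein lipase that limits the uptake of fatty acids from triglyceride-rich particles, and lies on chromosome 17 from 33773750 to 33781830. It had 32.8, 33.6 and 35.4 FPKM in mitochondria cells, against 47.8, 43.1 and 44.6 FPKM in control cells. The groups stood apart with no overlap, and each was tight. Angptl4 fell by 0.40 on the log2 scale (SE 0.06, 95% interval −0.54 to −0.26, limma adjusted p = 0.0359), a ratio of means of 0.751. The call was lost in each of the 6 fits that left out 1 library (limma adjusted p = 0.0650 to 0.174), and also with no filter, a plain empirical Bayes fit and the replicate block, although the log2 change stayed between −0.435 and −0.361 in all 16 alternatives. Lpl, the lipase that ANGPTL4 inhibits, was at 31.2, 31.8 and 38.8 FPKM in mitochondria cells, against 31.8, 29.6 and 36.7 FPKM in control cells, and overlapped. Lpl is named for this link, with its values already known.

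Cd36 showed the largest log2 difference among the members without passing. It encodes a membrane receptor that takes up long-chain fatty acids and modified lipoproteins, and lies on chromosome 5 from 17781690 to 17888801. It had 2.83, 2.77 and 2.55 FPKM in mitochondria cells, against 5.96, 4.82 and 3.81 FPKM in control cells. The mitochondria libraries lay close together and the control libraries were spread, all above them. Its log2 change was −0.64 (SE 0.13, 95% interval −0.96 to −0.33, limma adjusted p = 0.0887), a ratio of means of 0.559. Without control replicate 3 it was −0.78 and passed (limma adjusted p = 0.0425), while without control replicate 1 it was −0.51 and did not (limma adjusted p = 0.113).

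Acot1 and Acot2, neighbouring genes for acyl-CoA thioesterases, both had their mitochondria libraries below the control libraries. ACOT2 acts in the mitochondrial matrix and ACOT1 in the cytosol, and both release free fatty acid from acyl-CoA. Acot2 (chromosome 12, 83987861 to 83993873) had 3.83, 3.42 and 3.40 FPKM in mitochondria cells, against 6.15, 5.35 and 4.18 FPKM in control cells. Acot1 (chromosome 12, 84009490 to 84018371) had 3.87, 3.57 and 2.53 FPKM in mitochondria cells, against 4.17, 4.42 and 4.27 FPKM in control cells. Their log2 changes were −0.44 (SE 0.12, limma adjusted p = 0.173) for Acot2 and −0.31 (SE 0.12, limma adjusted p = 0.337) for Acot1. Without mitochondria replicate 3 that of Acot1 was −0.17. Of the 50-base words of the Acot2 transcript 24.5% also occur in Acot1, so the 2 genes may share fragments and their changes cannot be taken as independent.

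Ucp2 and Fabp5 had separated groups, in opposite directions, without passing the threshold. Ucp2, an inner membrane carrier of the uncoupling protein family (chromosome 7, 100493337 to 100502020), had 27.0, 26.7 and 25.5 FPKM in mitochondria cells, against 30.2, 30.3 and 31.6 FPKM in control cells. The log2 difference of −0.21 had an SE of 0.05 and did not pass (limma adjusted p = 0.122). Fabp5, a cytosolic carrier that delivers fatty acids to PPAR-delta (chromosome 3, 10012548 to 10016607), had 8.06, 8.86 and 7.84 FPKM in mitochondria cells, against 6.60, 6.57 and 5.61 FPKM in control cells, 0.35 higher on the log2 scale with an SE of 0.08 (limma adjusted p = 0.116). Its transcript shares 19.6% of its 50-base words with the processed pseudogene Gm6166 on chromosome 9, which was listed at 27.7, 28.1 and 23.8 FPKM in mitochondria cells, against 20.1, 21.6 and 19.8 FPKM in control cells. The pseudogene thus carried more FPKM than the gene, its groups did not overlap and were ordered as for Fabp5, and the level of Fabp5 is uncertain for that reason.

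The other 3 targets did not separate the groups. Plin2, which coats lipid droplets and was the most abundant member, had 94.0, 93.1 and 91.4 FPKM in mitochondria cells, against 119, 95.6 and 84.3 FPKM in control cells. Fabp4, a fatty acid carrier of adipocytes, macrophages and endothelium, had 30.7, 32.8 and 27.8 FPKM in mitochondria cells, against 32.9, 28.5 and 25.3 FPKM in control cells. Pdk4, a kinase that switches off pyruvate dehydrogenase and so favours fatty acids over glucose, was listed at 0.124 to 0.382 FPKM in mitochondria cells and 0.199 to 0.289 FPKM in control cells. Its relative Pdk1 was at 7.58, 8.17 and 6.41 FPKM in mitochondria cells, against 6.20, 5.38 and 4.42 FPKM in control cells, with a limma adjusted p of 0.215, and is named with its values already known. Pdk2 averaged 9.77 ± 1.07 FPKM in mitochondria cells and 10.6 ± 0.208 FPKM in control cells (SD, n = 3 each). Pdk3 averaged 10.9 ± 0.931 and 10.5 ± 0.649 FPKM in mitochondria and control cells. Both overlapped between groups, with limma adjusted p-values of 0.618 for Pdk2 and 0.813 for Pdk3.

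**Figure D3:**
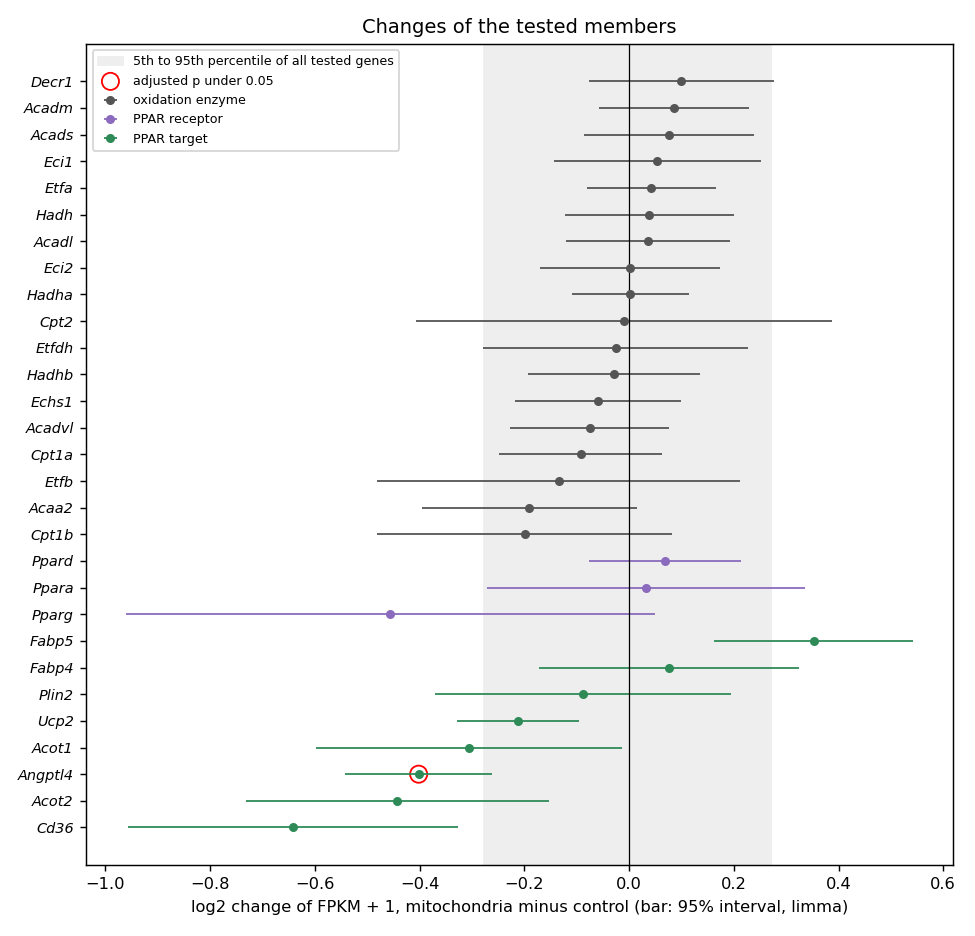
Log2 change of FPKM + 1, mitochondria minus control, of the 29 tested members with 95% intervals from limma; the grey band holds the 5th to 95th percentile of all genes tested (−0.28 to 0.27). The oxidation enzymes lie inside the band, while Cd36, Acot2, Pparg, Angptl4 and Acot1 lie below it and Fabp5 above it, with Angptl4 (ringed) past the threshold.

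Promoter windows of 25 members were in the RefSeq tables for GRCm38.p6. Those of Angptl4, Fabp4, Fabp5, Acaa2, Decr1 and Cpt1b were not analysed here. The direct repeat AGGTCANAGGTCA, read on both strands, occurred in 0.0396% of all 32851 windows and in no member window, and the looser AGGNCANAGGNCA, which contains it, in 0.381% and in no member window. The single hexamer AGGTCA, which is part of both, occurred in 16.3% of all windows and in 9 of 27 member windows, those of Cpt1a, Cpt1c, Acadm, Acadvl, Echs1, Plin2, Cd36 and 2 of Pparg. Such a match is a description of letters in 300 bases. The windows of Cd36, Acot2 and Acot1 are shown because these 3 targets had the lowest ratios of means among the targets besides Angptl4, with the hexamer in capitals (as TGACCT where it lies on the other strand). They are chr5:17835847-17836146 on the minus strand, chr12:83987611-83987910 and chr12:84009252-84009551 on the plus strand, read 5′ to 3′ along the gene and credited to RefSeq:
Cd36: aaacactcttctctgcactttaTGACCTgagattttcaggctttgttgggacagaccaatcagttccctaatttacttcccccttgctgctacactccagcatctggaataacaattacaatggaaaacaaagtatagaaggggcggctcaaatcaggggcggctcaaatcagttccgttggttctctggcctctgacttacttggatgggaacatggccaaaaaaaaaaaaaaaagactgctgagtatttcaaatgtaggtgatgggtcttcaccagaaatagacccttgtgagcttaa
Acot2: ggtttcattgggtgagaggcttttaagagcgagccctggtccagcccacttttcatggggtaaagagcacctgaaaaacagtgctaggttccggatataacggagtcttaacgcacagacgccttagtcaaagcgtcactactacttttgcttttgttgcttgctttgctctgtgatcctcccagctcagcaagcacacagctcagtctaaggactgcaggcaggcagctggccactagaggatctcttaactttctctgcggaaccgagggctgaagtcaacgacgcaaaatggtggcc
Acot1: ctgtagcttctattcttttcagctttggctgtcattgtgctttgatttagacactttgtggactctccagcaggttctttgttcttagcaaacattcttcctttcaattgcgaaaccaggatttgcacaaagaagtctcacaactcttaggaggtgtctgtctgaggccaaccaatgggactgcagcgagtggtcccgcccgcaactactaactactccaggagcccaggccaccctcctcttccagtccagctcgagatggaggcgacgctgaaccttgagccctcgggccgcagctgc
The capitals in Cd36 mark the 1 hexamer, and the Acot2 and Acot1 windows hold none. The Cd36 window lies inside the annotated gene, whose 5′ end is at 17888801, so it is not the window of the outermost start site.

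Control replicate 1 was often the high library. It had the highest FPKM of the 3 controls in 20 of the 29 tested members, against 41.3% of all genes tested, and the highest of all 6 libraries in 14, against 26.6%. It was also the shallowest library and had the largest sum of FPKM over all genes. Without it the log2 change was 0.05 for Plin2, which is −0.09 with it, −0.51 for Cd36 and −0.34 for Acot2, none past the threshold, and Angptl4 had a log2 change of −0.36 with a limma adjusted p of 0.0654.

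In the rest of fatty acid handling, 124 further genes from 10 lists were tested and limma called 0 of them. At an unadjusted p under 0.05 there were 11 higher (8.87%) and 14 lower (11.3%), against 6.58% and 7.32% of all genes tested. The lipid droplet and lipolysis list had 4 of 13 tested genes lower at that level and none higher, with a median log2 change of −0.15. Its smallest p was that of Abhd5, the activator of the lipase PNPLA2, with 8.10, 8.36 and 8.69 FPKM in mitochondria cells against 10.9, 11.1 and 10.1 FPKM in control cells (limma adjusted p = 0.0730). The list of other PPAR targets had 3 of 17 higher and 4 lower at the same level, with a median of −0.09, and was led by Gpd1, a glycerol-3-phosphate dehydrogenase, with 1.57, 1.70 and 1.40 FPKM in mitochondria cells against 2.59, 2.63 and 2.01 FPKM in control cells (limma adjusted p = 0.132). Neither gene overlapped between groups.

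Peroxisomal oxidation, which shortens very long and branched chains, had 2 of 19 tested genes higher and 3 lower at an unadjusted p under 0.05. Over all genes tested the shares were 6.58% higher and 7.32% lower, which also stand beside the other counts of this paragraph. Acox2, a peroxisomal oxidase for branched chains, had 1.41, 1.15 and 1.15 FPKM in mitochondria cells, against 2.33, 2.16 and 1.89 FPKM in control cells (limma adjusted p = 0.0678). Other mitochondrial acyl-CoA enzymes had 4 of 27 higher and 1 lower at that p, and the smallest p was that of Mut, the methylmalonyl-CoA mutase, at 15.5 ± 0.405 FPKM in mitochondria cells and 13.2 ± 1.09 FPKM in control cells (SD, n = 3 each, limma adjusted p = 0.232). Fatty acid activation and uptake had 1 of 13 higher and 1 lower at that p, with Slc27a4, a fatty acid transport protein, at 25.6, 25.9 and 27.6 FPKM in mitochondria cells and 31.2, 29.99 and 31.7 FPKM in control cells (limma adjusted p = 0.123).

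Control of entry by malonyl-CoA, the inhibitor of CPT1, had 6 of 9 tested genes with a log2 change below 0, against 52.0% of all genes tested. At an unadjusted p under 0.05 it had 1 gene higher, against 6.58% of all genes tested, and none lower. That gene was Acacb, the carboxylase that makes malonyl-CoA at the outer membrane, with 4.93, 5.12 and 4.68 FPKM in mitochondria cells, against 3.59, 4.01 and 3.90 FPKM in control cells (limma adjusted p = 0.116). Ketone body genes had 3 of 5 with a log2 change below 0, against 52.0% of all genes tested. At that p 1 of the 5 was lower, against 7.32% of all genes tested. The 1 was Bdh1, a 3-hydroxybutyrate dehydrogenase, at 6.49 ± 0.549 FPKM in mitochondria cells and 8.06 ± 0.281 FPKM in control cells (SD, n = 3 each, limma adjusted p = 0.145). The lists of carnitine supply (4 tested), of PPAR partners and coregulators (16 tested) and of flavin supply and ETF helpers (6 tested) had none at an unadjusted p under 0.05. Their smallest p-values were those of Slc25a20, the carnitine-acylcarnitine carrier, Nrip1, a corepressor, and Rfk, the riboflavin kinase, with limma adjusted p-values of 0.424, 0.392 and 0.514.

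**Figure D4:**
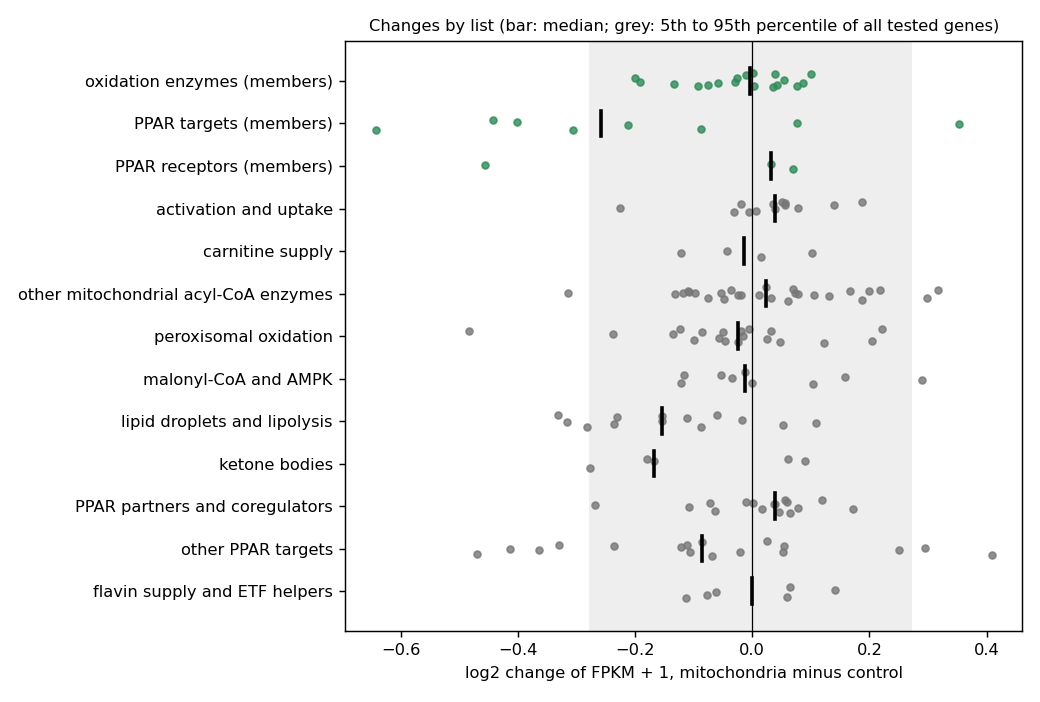
Log2 change of FPKM + 1, mitochondria minus control, of each tested gene by list, with the list median as a bar and the 5th to 95th percentile of all tested genes in grey; members are green. The medians of the PPAR targets among the members (−0.26), ketone body genes (−0.17) and lipid droplet genes (−0.15) lie farthest from 0. That of the other PPAR targets is −0.09.

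Markers of other cell types were read beside these results. Of 15 astrocyte markers 5 were at 1 FPKM or more in every library and 4, among them Aqp4, at 0 in every library, with a summed level of 88.4 to 90.8 FPKM in mitochondria cells and 71.7 to 109 FPKM in control cells. The mean was higher in mitochondria cells for 6 of the 15 and lower for 5. Gja1 was the most uneven, at 24.1, 23.5 and 25.8 FPKM in mitochondria cells, against 45.7, 11.7 and 45.98 FPKM in control cells. Without it the sums did not overlap, at 64.3 to 65.1 FPKM in mitochondria cells and 60.04 to 62.7 FPKM in control cells. The part of Gja1 in the results was not tested. Gfap stayed at or under 0.198 FPKM. The groups did not overlap for Slc1a2, Aldoc and Aldh1l1, each higher in mitochondria cells, and for none that was lower. The shares of all genes tested without overlap were 9.62% for higher and 11.4% for lower. Slc1a2 stayed at or under 0.169 FPKM and, like Aldh1l1, was too low to be tested. Aldoc was not called (limma adjusted p = 0.268). Aldh1l1, a folate enzyme used as an astrocyte marker and picked out once its values were known, had 0.972, 1.15 and 1.06 FPKM in mitochondria cells, against 0.416, 0.455 and 0.302 FPKM in control cells. Of 12 fibroblast and mural markers 6 were at 1 FPKM or more in every library, with a summed level of 382 to 420 FPKM in mitochondria cells and 431 to 465 FPKM in control cells. Col1a1 alone separated that sum, at 83.9 ± 3.19 FPKM in mitochondria cells and 138 ± 2.45 FPKM in control cells (SD, n = 3 each). It was called, lower in mitochondria cells (limma adjusted p = 0.00547). Without it the other 11 summed to 299.8 to 338 FPKM in mitochondria cells and 296 to 327 FPKM in control cells, which overlap. Pdgfra, Des and Acta2 had every mitochondria library above every control library, while Col1a1 and Col1a2 had the opposite. The same held for 9.62% and 11.4% of all genes tested, and Col1a2 stayed at or under 0.330 FPKM.

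Most macrophage, muscle and liver markers were low. Of 10 macrophage and microglial markers, which matter for Cd36 and Fabp4, 8 stayed under 0.5 FPKM, and Ptprc, Tyrobp and C1qa were at 0 in every library. Their sum was 3.50 to 4.49 FPKM in mitochondria cells and 3.74 to 5.05 FPKM in control cells. The 9 markers of cardiac and skeletal muscle summed to 7.15 to 9.004 FPKM in mitochondria cells and 6.01 to 6.78 FPKM in control cells, most of it Des, with Ckm and Actc1 at 0. The 8 hepatocyte markers summed to 0.818 to 0.899 FPKM in mitochondria cells and 1.02 to 1.22 FPKM in control cells, with 5 at 0 in every library. The muscle and hepatocyte sums did not overlap between groups but did without Des and without Alb, at 1.34 to 1.64 and 0.679 to 0.731 FPKM in mitochondria cells and 1.21 to 1.70 and 0.3995 to 0.831 FPKM in control cells. Among the adipocyte markers, Cfd, Retn and Plin1 were listed at traces, and Cfd, picked out in the same way, was at 0.0812, 0 and 0.178 FPKM in mitochondria cells and 0.657, 0.540 and 0.429 FPKM in control cells.

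**Figure D5:**
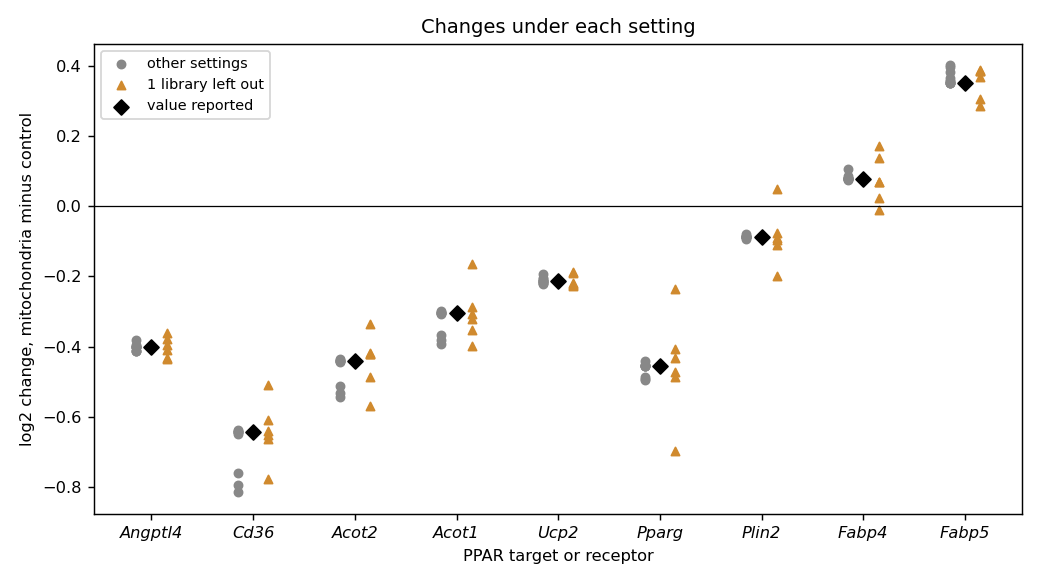
Log2 change of FPKM + 1, mitochondria minus control, of 8 PPAR targets and Pparg as reported (diamonds), under other settings (grey circles) and with 1 library left out (triangles). Angptl4, Cd36, Acot1, Acot2, Ucp2 and Pparg stay below 0 and Fabp5 above 0 throughout, while Plin2 and Fabp4 cross 0 when 1 library is left out.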

How the data were processed

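RNA of 6 bEnd.3 libraries was prepared with a strand-specific mRNA kit, per the labels' protocols. The authors deposited 1 table of values per library, which were read as FPKM from the values, since the headers name no unit: they are not whole numbers and each library sums to between 281433 and 297838. The tools StringTie 1.3.1c, STAR 2.5.3a and FastQC 0.11.5 and the build GRCm38 (mm10) are named in the submitters' processing notes, without roles. No source used here says whether counting used strand. Of 55335 identifiers 55154 matched GENCODE M21, which gave symbols and coordinates. Depth was estimated from the worth of 1 fragment in single-transcript genes. Whole multiples (to within 0.02) made up only 21.04% to 22.8% of low values, and no count test was run.

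R 4.3.3 with limma 3.58.1 was used for the fit to log2(FPKM + 1), with all 6 libraries, group as the only term, empirical Bayes with trend and robust options, and two-sided p-values adjusted by Benjamini-Hochberg over 12639 genes. The code was tested on simulated data. Members and lists were chosen with earlier results of these data known. All 31 members are named, and from each further list the called genes or, with none, the gene with the smallest p. Sharing between genes was measured as 50-base words of the longest coding transcript found in transcripts of any other gene.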

Additional observations from a re-analysis of the deposited data

How the results depend on the processing

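No oxidation enzyme was called under any of the 16 alternatives. The number of genes called, 141, became 13 with no filter and 56 with the replicate block, and lay between 14 and 88 with 1 library left out. The number of PPAR targets and receptors called, 1, became 0 with no filter, 0 with a plain empirical Bayes fit and 0 with the replicate block, and lay between 0 and 1 with 1 library left out, where the 1 was Cd36. The cause was not tested.

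The replicate numbers were not taken as pairs in the main fit. Deviations of same-numbered libraries from their group means correlated at 0.10, 0.05 and 0.30 across genes for replicates 1, 2 and 3. For differently numbered libraries the values ran from −0.20 to 0.12. The value for replicate 3 was thus the highest, and whether its 2 libraries share a source of spread was not tested.

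Of the 29 tested members 11 changed sign under some alternative, 8 of them only when a library was left out, and none of these was called in any setting. With TPM, Hadha was at −0.002 and Eci2 at −0.002 on the log2 scale, and with quantile normalization Cpt2 was at 0.011. With 1 library left out, log2 changes ranged from −0.02 to 0.092 for Acadl, −0.018 to 0.019 for Hadha, −0.019 to 0.109 for Eci1, −0.053 to 0.058 for Eci2, −0.003 to 0.10 for Hadh, −0.164 to 0.11 for Cpt2, −0.108 to 0.066 for Etfdh, −0.077 to 0.03 for Hadhb, −0.09 to 0.099 for Ppara, −0.20 to 0.048 for Plin2 and −0.012 to 0.17 for Fabp4. No scaling moved the median of all genes by over 0.1. With 3 libraries a group, the log2 differences of Ucp2 and Fabp5 did not pass in any setting.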
